A study of Homo sapiens with 8 samples.

Results

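The late response of a salivary gland cell line to tumour necrosis factor alpha (TNF-α) was read as the difference between 2 arrays, TNF-α at 24 h minus bovine serum albumin (BSA) at 24 h, out of 8 arrays in all. Every gene with a probe set of its own on these arrays was a member, which gave 18212 genes. Of these, 11809 (64.8%) had 2 or more probe sets and 6403 had 1. Probe positions were not available, so whether the probe sets of 1 gene read separate stretches of its transcripts is not known. A gene with 2 or more probe sets was sorted by whether all of them read higher with TNF-α, all read lower, or the signs disagreed.

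All samples were of NS-SV-AC, a human acinar cell line immortalised from the salivary gland. The cultures received TNF-α at 20 ng/ml, or BSA as the control protein, for 2, 6, 12 or 24 h. Each treatment and time had 1 array, so no value below has a replicate or a test, and higher and lower describe these arrays alone. From each sample 10 ng of total RNA was amplified and labelled with a 3′ IVT kit. The 12 h and 24 h comparisons share no array.

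TNF-α binds its receptor on the cell surface and activates NF-κB, a transcription factor that switches on chemokines, adhesion molecules and its own inhibitors. In many cells this is followed by a slower phase in which interferon-stimulated genes are transcribed, many of them through an interferon-stimulated response element in their promoters. A 3′ IVT kit copies RNA from the poly(A) tail, so probe sets far from the 3′ end lose signal where RNA is broken or where copying stops early. Arrays carry probe sets at the 3′ end, the middle and the 5′ end of a few control transcripts to show this loss.

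Both reference transcripts on the TNF-α 24 h array had lost signal towards the 5′ end. For GAPDH, a glycolytic enzyme, the 3′ probe set read 11.53, the middle one 8.13 and the 5′ one 5.25 (log2), a gap of 6.28 from end to end. The gap was between 0.20 and 0.37 on the other 7 arrays. For ACTB, cytoskeletal actin, the gap was 6.88 against 2.59 to 3.47 elsewhere. These gaps are what the label of degraded RNA refers to.

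Most probe sets of the bacterial transcripts that are added to the RNA before labelling also read lower on the same array, which the label does not cover. The added transcript dap read lower on all 6 of its probe sets at 24 h, with differences of -3.46 to -0.57, and 5 of the 6 were at least 2-fold lower. At 12 h its 6 differences were all above 0, from 0.0048 to 0.46. One dap trio of 3′, middle and 5′ probe sets had a gap of 4.45, against 2.76 to 3.21 on the other 7 arrays, while the gap of the other trio, 2.72, lay within their range of 2.71 to 3.11. In that other trio the middle probe set differed by -3.35 and the 3′ one by -1.92. Its 5′ probe set read 3.31 on the TNF-α 24 h array, under that array's lower quartile of 3.51. The added transcript thr also read lower on all 6 probe sets, with differences of -1.18 to -0.03, and its gaps were narrower than on any other array. Its 5′ probe sets read 3.17 and 3.24 with BSA and 3.14 and 3.12 with TNF-α at 24 h, under the lower quartiles of 3.37 and 3.51. A loss there could therefore hardly show in the gap. Its middle probe sets differed by -0.85 and -1.18 and its 3′ ones by -0.55 and -0.95. For phe 4 of 6 probe sets read lower and for lys 5 of 6, and their gaps, 1.49 and 2.56 for phe and 2.68 and 0.71 for lys, were wider than on any other array. The controls bioB, bioC, bioD and cre, which are added after labelling, had differences above 0 at 24 h, from 0.72 to 0.98 for bioB. The low array here was BSA at 24 h: the bioB 3′ probe set read 6.98 there, 7.83 with TNF-α at 24 h and 7.40 to 7.65 on the 6 earlier arrays. The gap of bioC, -0.47 on the TNF-α 24 h array, lay outside the -0.17 to 0.01 of the other 7 arrays, with the 3′ end the dimmer one. Damage to the cells' RNA and shorter copying in the labelling reaction cannot be told apart here, so the array is described below by its control gaps and not as degraded RNA.

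**Figure D1:**
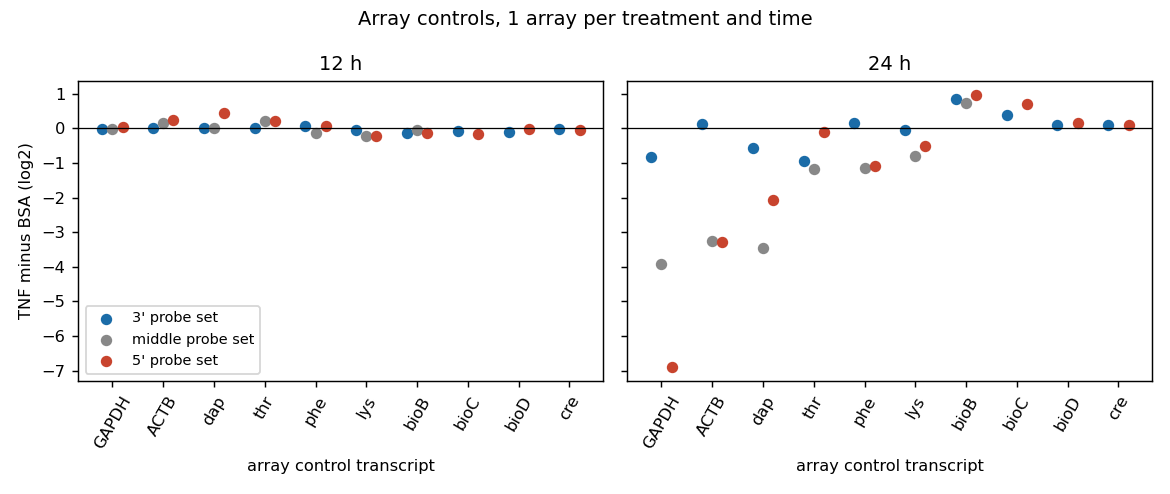
The vertical axis is TNF-α minus BSA (log2) for the 3′, middle and 5′ probe sets of each control transcript, at 12 h (left) and 24 h (right), with 1 array per treatment and time; for dap, thr, phe and lys 1 of 2 trios is drawn. At 24 h the 5′ probe set of GAPDH differed by -6.90 and the 3′ one by -0.83, the middle probe set of dap differed by -3.46 and its 3′ one by -0.57, and bioB to cre lay above 0, where the BSA 24 h array read low for bioB.

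The TNF-α 24 h array had a mean correlation of 0.903 with the other arrays over all probe sets, against 0.964 to 0.975 for those. Its log2 values spanned 3.51 to 6.22 between the quartiles, against 3.37 to 3.42 and 6.40 to 6.54. The BSA 24 h array also stood apart in part: the ACTB 3′ probe set read 10.64 there and 12.16 to 12.24 on the other BSA arrays. Both 24 h arrays therefore enter each difference below.

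The median difference over all probe sets at 24 h was 0.13, against -0.014, -0.0033 and 0.00042 at 2, 6 and 12 h. It depended on the level: among the dimmest quartile of probe sets the median was 0.16 and 82.9% read higher, and among the brightest it was -0.09 and 46.2% read higher. This shift with level stands beside every sign below.

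All probe sets read higher for 4509 of the 11809 genes (38.2%), all read lower for 1469 (12.4%) and the signs disagreed for 5831 (49.4%). At 12 h all probe sets read higher for 2794 genes (23.7%). The signs disagreed for 61.1%, 53.5% and 51.9% of the genes at 2, 6 and 12 h. Disagreement in sign was thus not more frequent at 24 h. A sign alone said little at 24 h. Of the 4509 genes, 2403 (53.3%) had even their brightest probe set under the median level of all probe sets, and 3514 (77.9%) had a mean difference under 0.5. With dim probe sets left out, 5892 genes had 2 or more, and 1342 of them read all higher and 1434 all lower. The median range between the probe sets of 1 gene was 0.63 at 24 h, against 0.18, 0.24 and 0.24 at 2, 6 and 12 h. A range of 4-fold or more between probe sets of 1 gene was seen for 1536 genes at 24 h and for 37 at 12 h. At 24 h the signs disagreed for 31.7% of genes with 2 probe sets, 50.5% with 3 and 70.4% with 4 or more. The gene lists below are set beside all genes and were not matched for this number.

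Asking for a difference of at least 2-fold on every probe set left 53 genes higher (0.449% of the 11809) and 197 lower (1.67%). The corresponding counts at 12 h were 51 higher (0.432%) and 14 lower (0.119%). The number of higher genes was thus near that of the earlier time, while the lower genes were 197 against 14. In such bulk RNA fewer cells of a type and less RNA per cell cannot be told apart. The requirement was harder to meet with more probe sets. Among the 53 higher genes 42 had 2 probe sets, 11 had 3 and none had 4 or more. Among the 197 lower genes 113, 50 and 34 had 2, 3 and 4 or more. When the 8 columns were quantile normalised once more the counts were 80 higher and 161 lower, and with the mean of the 4 BSA arrays as reference they were 108 and 228.

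**Figure D2:**
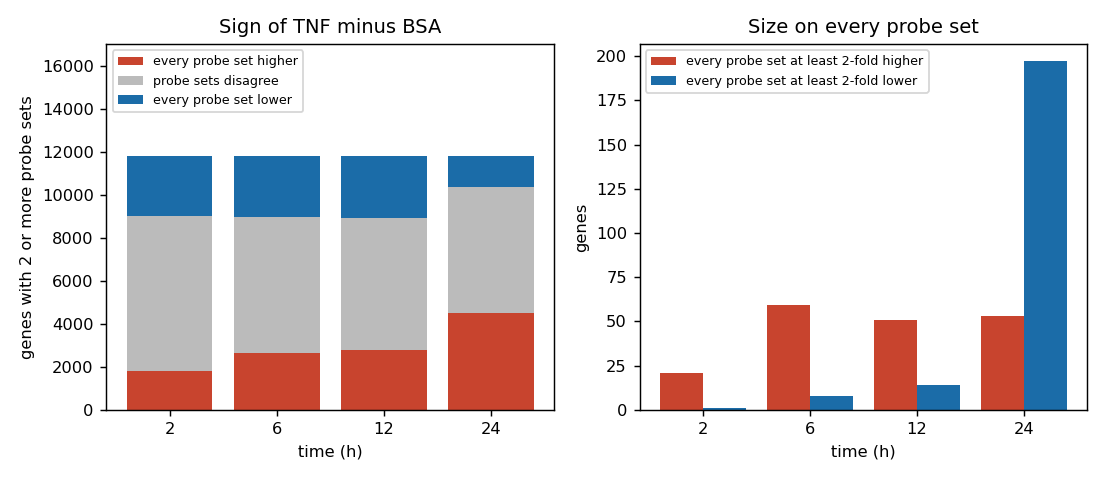
The left panel counts the 11809 genes with 2 or more probe sets by the sign of TNF-α minus BSA at each time, and the right panel counts those with every probe set at least 2-fold higher or lower. The lower count was 1, 8, 14 and 197 at 2, 6, 12 and 24 h, and the higher count was 21, 59, 51 and 53.

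Of the 53 higher genes, 16 were also at least 2-fold higher on every probe set at 12 h. They were APOBEC3B, CCL5, CD47, CXCL11, DRAM1, FAS, FGD6, IFI16, IFI44L, IFITM1, NFE2L3, NFKBIA, RIGI, TIFA, TNFAIP3 and VCAM1. None of the 197 lower genes was at least 2-fold lower on every probe set at 12 h. Over all 11809 genes 51 (0.432%) were 2-fold higher and 14 (0.119%) 2-fold lower on every probe set then. With so few lower genes at 12 h, the lack among the 197 says little. Of the 53, 28 (52.8%) read higher on every probe set at 12 h, and of the 197, 79 (40.1%) read lower and 52 (26.4%) read higher. Over all 11809 genes 23.7% read higher and 24.4% lower on every probe set at 12 h. The median difference of the 197 genes was -1.94 at 24 h and -0.03 at 12 h.

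**Figure D3:**
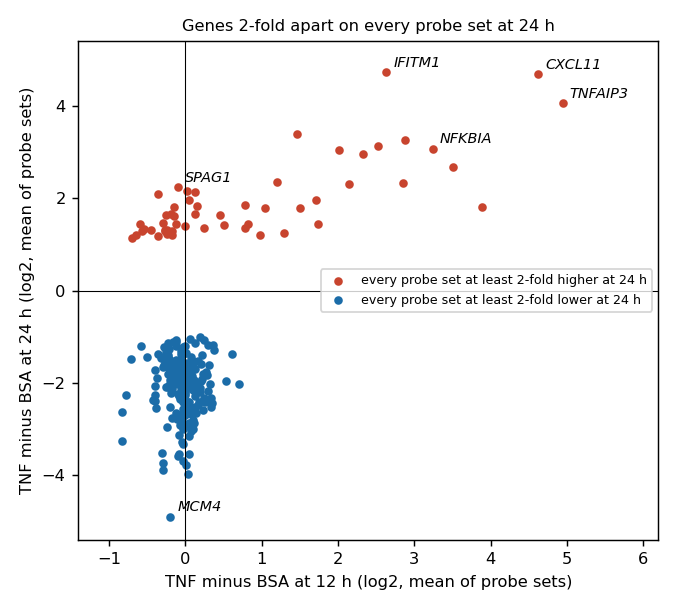
Each point is a gene with every probe set at least 2-fold higher (red, 53 genes) or lower (blue, 197 genes) at 24 h; the horizontal axis is its mean TNF-α minus BSA at 12 h and the vertical axis that at 24 h (log2). The red points reach from below 0 to 4.94 at 12 h (TNFAIP3), while the blue points gather around a 12 h median of -0.03.

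The promoters of 4 of the higher genes are shown because they hold the short motifs through which interferon and NF-κB signals are known to act. Each is the 250 bases before the RefSeq start of the gene on GRCh38.p14, read 5′ to 3′ along the gene, with matches to GAAANNGAA (the core of the interferon-stimulated response element) or GGANNTTCC (the core of a κB site) in capitals, on either strand. The window of IFITM1 is chr11:313790-314039 on the plus strand, with an interferon element core that starts 40 bases before the gene. IFI27, at chr14:94110486-94110735 on the plus strand, has 2 such cores, which start 107 and 95 bases before it. CXCL11, at chr4:76036071-76036320 on the minus strand, has a κB core 75 bases before it. NFKBIA, at chr14:35404750-35404999 on the minus strand, has κB cores 242 and 81 bases and an interferon element core 139 bases before it.
IFITM1: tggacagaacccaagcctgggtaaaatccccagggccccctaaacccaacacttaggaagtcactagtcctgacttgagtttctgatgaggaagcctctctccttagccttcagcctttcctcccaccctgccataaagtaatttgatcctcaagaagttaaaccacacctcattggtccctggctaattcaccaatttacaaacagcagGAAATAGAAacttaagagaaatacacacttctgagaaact
IFI27: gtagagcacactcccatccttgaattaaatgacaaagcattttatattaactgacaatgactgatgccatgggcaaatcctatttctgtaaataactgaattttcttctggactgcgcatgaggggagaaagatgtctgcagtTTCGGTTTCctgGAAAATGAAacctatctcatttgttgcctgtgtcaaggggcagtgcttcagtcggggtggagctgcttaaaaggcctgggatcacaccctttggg
CXCL11: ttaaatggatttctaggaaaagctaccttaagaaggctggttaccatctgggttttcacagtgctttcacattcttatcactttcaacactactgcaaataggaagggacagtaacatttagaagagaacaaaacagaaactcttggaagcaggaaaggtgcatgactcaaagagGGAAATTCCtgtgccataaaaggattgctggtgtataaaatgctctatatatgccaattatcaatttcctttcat
NFKBIA: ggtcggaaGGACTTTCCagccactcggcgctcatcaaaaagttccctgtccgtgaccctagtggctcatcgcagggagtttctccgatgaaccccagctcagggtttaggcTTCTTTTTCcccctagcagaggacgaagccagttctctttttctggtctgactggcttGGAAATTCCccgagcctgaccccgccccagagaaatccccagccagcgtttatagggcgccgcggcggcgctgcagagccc

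A window was found for 9584 of the 11809 genes and for 44 of the 53. The interferon element core stood in 12 of the 44 (27.3%), in 8.06% of the 9584 and in 6.88% of all 35116 windows in the table. The κB core stood in 10 of the 44 (22.7%), in 5.54% of the 9584 and in 3.84% of all windows. Among the 171 lower genes with a window the shares were 5.85% and 4.68%. A match describes letters in a window and is not shown to be a bound site, and genes differ in how many windows they have.

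IFITM1, a membrane protein that blocks the entry of viruses, had the largest difference on its least-differing probe set. The mean of its 2 probe sets was 5.07, 4.94, 4.86 and 4.53 on the BSA arrays and 5.04, 6.13, 7.49 and 9.27 on the TNF-α arrays at 2, 6, 12 and 24 h. The TNF-α 24 h array was the highest of the 8 and the BSA arrays lay close together. The differences at 24 h were 4.72 and 4.75, and the mean at 12 h was 2.63. IFI27, another interferon-stimulated gene, read 3.81 with BSA and 7.20 with TNF-α at 24 h, and its 2 probe sets differed by 3.02 and 3.75 after a mean of 1.46 at 12 h.

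CXCL11, a chemokine that draws activated T cells through CXCR3, was flat with BSA at 2.78, 2.78, 2.85 and 2.87 and read 2.95, 6.33, 7.47 and 7.56 with TNF-α. Its 3 probe sets differed by 4.04 to 5.04 at 24 h, and its mean difference was 4.69 after 4.63 at 12 h. RIGI, a sensor of viral RNA, differed by 2.49 to 4.34 on 3 probe sets, with a mean of 3.25 at 24 h and 2.88 at 12 h. IFI44L, an interferon-stimulated gene, differed by 1.45 to 4.23 on 3 probe sets. IFI16, a DNA sensor of the nucleus, had a mean difference of 1.96 after 1.71 at 12 h.

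Of 10 genes of NF-κB subunits and feedback with 2 or more probe sets 4 read higher, 1 lower and 5 disagreed, shares near the 38.2%, 12.4% and 49.4% of all genes. NFKBIA and TNFAIP3, feedback inhibitors, were 2-fold higher on every one, while TNIP1 and TNIP2, which bind A20, differed by -0.10 on the mean of 8 probe sets and by -0.73 on 1. In size the list stood higher, with a median of 0.72 over the 16 measured, against 0.15 over all genes. Its median at 12 h was 1.17. Of its 6 members with 1 probe set 3 were at least 2-fold higher, against 243 of all 6403 such genes. NFKBIA encodes IκBα, which holds NF-κB in the cytoplasm. Its mean over 3 probe sets was 7.61, 7.96, 7.33 and 6.72 with BSA and 10.94, 11.14, 10.58 and 9.80 with TNF-α, so that the groups did not overlap at any time. The level on both 24 h arrays was the lowest of its treatment, and the differences at 24 h were 2.43 to 3.42. Against the mean of the 4 BSA arrays the mean difference was 2.39 instead of 3.08. TNFAIP3, the ubiquitin-editing enzyme A20, had probe sets that agreed in sign but not in size, with differences of 6.11 and 2.01 at 24 h and of 7.87 and 5.41 at 2 h.

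Other genes that were 2-fold higher on every probe set at both times have different roles. FAS, a death receptor of the TNF family, differed by 2.92 and 3.17, after a mean of 2.01 at 12 h. FGD6, an exchange factor for Cdc42, differed by 2.88 and 3.03, after 2.33. VCAM1, a receptor for leukocyte integrins, differed by 1.48 and 3.86, and its mean of 2.67 stood below the 3.50 at 12 h. CCL5, a chemokine for T cells, had a mean of 1.80 after 3.89. DRAM1, a lysosomal protein of autophagy, read 7.97 and 8.47 with TNF-α and 5.12 and 6.15 with BSA at 12 and 24 h, so that its mean difference of 2.32, after 2.85, stands beside a higher BSA reading. NFE2L3, a transcription factor, had a mean of 2.30 after 2.14. APOBEC3B, a cytidine deaminase, read 8.46 with BSA and 10.25 with TNF-α at 24 h, and the difference of 1.79 became 1.17 against the BSA 12 h array. CD47, which inhibits uptake by phagocytes, had a mean of 1.45, and TIFA, an adaptor that joins TRAF proteins, had 1.25.

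**Figure D4:**
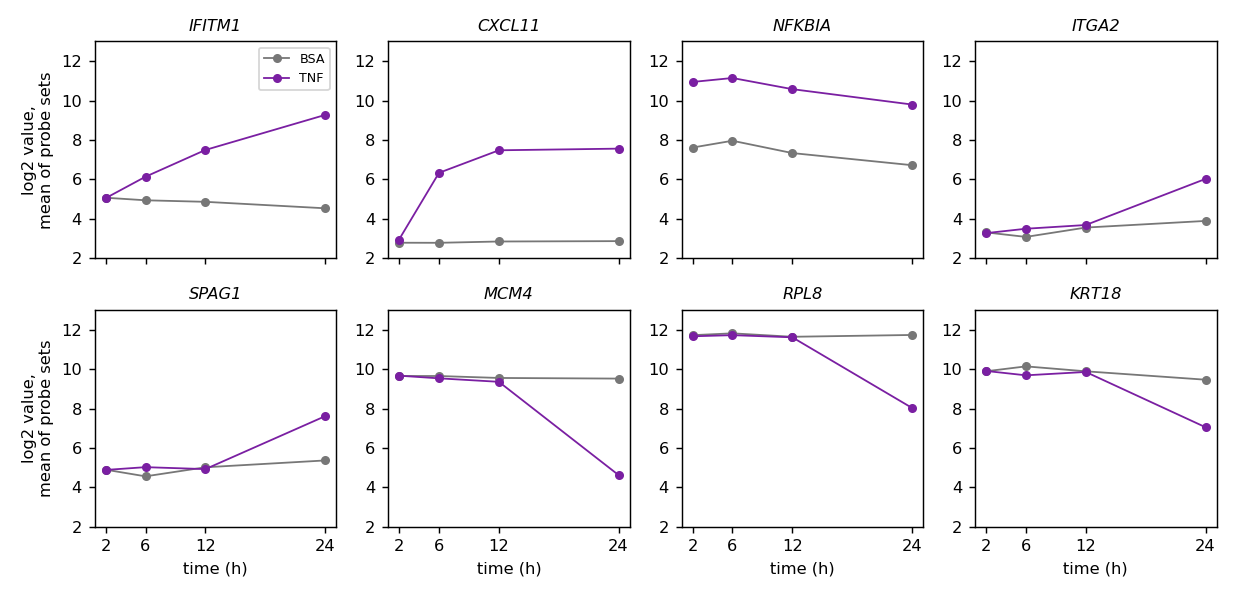
Each panel gives a gene's log2 value (mean of its probe sets) by time in h for BSA (grey) and TNF-α (purple), 1 array per point. IFITM1, CXCL11 and NFKBIA stood above BSA before 24 h, ITGA2 and SPAG1 separated at 24 h, and MCM4, RPL8 and KRT18 followed BSA until 12 h and read far lower on the TNF-α 24 h array.

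Interferon-stimulated effectors mostly read higher. Of the 33 measured, 20 had 2 or more probe sets, of which 15 read higher on every probe set, none read lower on every one and 5 disagreed, against 38.2%, 12.4% and 49.4% of all genes. Only IFITM1, IFI27 and IFI44L were 2-fold higher on every probe set. The list's median difference was 1.71 at 24 h and 1.40 at 12 h, against 0.15 and 0.0047 over all genes. XAF1, a proapoptotic interferon-stimulated gene, ranged from 0.35 to 4.94 over 7 probe sets, and PLSCR1, a phospholipid scramblase, from 0.95 to 3.60 over 6. Of the 13 members with 1 probe set 10 were at least 2-fold higher, against 243 of all 6403 genes with 1 probe set. Among the 10 were DDX60, a helicase, at 3.95, ISG15, a ubiquitin-like modifier, at 3.13, and MX1, an antiviral GTPase, at 2.71. IFI6 and IFITM3 differed by -0.22 and -0.39.

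A low BSA reading at 24 h enters these differences. ISG15 read 8.32, 8.91, 8.83 and 7.34 with BSA and 8.49, 9.65, 10.39 and 10.48 with TNF-α. The TNF-α value was nearly the same at 12 and 24 h, so the larger difference at 24 h came with the lowest BSA value of the series. With the mean of the 4 BSA arrays as the reference the median of the interferon-stimulated effectors was 1.30, and with BSA at 12 h 1.39.

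RNA sensors and the oligoadenylate synthetases that activate RNase L were mostly higher as well. Of 9 with 2 or more probe sets 7 read higher on every one and 2 disagreed, against 38.2% and 49.4% of all genes, with a median of 1.43 over the 11 measured. IFIH1, the sensor MDA5, differed by 0.56 and 4.40. OAS3, a synthetase, differed by 4.83, 4.62 and -0.07, and the last of these probe sets read between 3.25 and 3.62 on all 8 arrays. All 3 guanylate binding proteins with 2 or more probe sets read higher on every one. The 5 guanylate binding proteins, interferon-stimulated GTPases that attack pathogen vacuoles, had a median of 1.48 at 24 h and 3.18 at 12 h. GBP1 went from a mean difference of 4.79 at 12 h to 2.43, while GBP5 went from 0.56 to 1.92.

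Of 10 interferon signalling genes with 2 or more probe sets 8 disagreed, against 49.4% of all genes and 70.4% of those with 4 or more. IRF1, an early interferon and NF-κB responsive transcription factor, differed by 1.98 and 0.50 on 2 probe sets and by -0.19 and -0.32 on the others, although the first 3 in brightness differed by 1.27 to 2.16 at 12 h. IRF9, the DNA-binding subunit of the interferon-stimulated complex, read higher on all 4 probe sets, by 0.31 to 3.85. IFNGR1, a chain of the interferon gamma receptor, differed by -0.22 and -2.21 after a mean of 1.12 at 12 h. Of 14 class I antigen presentation genes 7 read higher, 1 read lower and 6 disagreed, against 38.2%, 12.4% and 49.4% of all genes. HLA-F read higher on all 10 probe sets, by 0.12 to 3.42. PSMB8, an immunoproteasome subunit, differed by 1.47 and 1.53 at 12 h on its bright probe sets and by -3.73 and -4.31 at 24 h, with a dim one at 0.66. TAP1, the peptide transporter, differed by 2.01 and -2.32.

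Of 9 chemokines with 2 or more probe sets 7 read higher and 2 disagreed, against 38.2% and 49.4% of all genes, and CXCL11, CXCL2 and CCL5 were 2-fold higher on every one. CXCL2, a neutrophil chemokine, had mean differences of 4.42, 2.76, 0.78 and 1.36 at 2, 6, 12 and 24 h. CXCL8, the neutrophil chemokine interleukin 8, ranged from 0.05 to 3.19 over 3 probe sets at 24 h. CXCL10, a ligand of CXCR3 with a single probe set, differed by 1.74 after 6.96 at 12 h, so CXCL11 and CXCL10 parted at 24 h. Of 11 cytokines 9 read higher and 2 disagreed, against the same 38.2% and 49.4% of all genes. TNFSF13B, the B cell survival factor BAFF, read 3.65 with BSA and 5.99 with TNF-α at 24 h, with differences of 2.05 and 2.64 after a mean of 1.20 at 12 h.

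Adhesion molecules differed in how far their probe sets agreed. Of 12 genes 8 read higher and 4 disagreed, against 38.2% and 49.4% of all genes. ICAM1, a receptor for leukocyte integrins, differed by 2.61, 1.19 and 0.54 at 24 h after 3.97 to 4.62 at 12 h. CD44, the hyaluronan receptor, had 9 of 10 probe sets higher, from 0.36 to 4.84, and 1 at -0.17. At 12 h all 10 CD44 probe sets read higher, by 0.90 to 3.65. ITGA2, the collagen-binding integrin subunit α2, read 3.89 with BSA and 6.02 with TNF-α at 24 h on the mean of its 2 probe sets. It differed by 1.76 and 2.50, with a mean of 0.13 at 12 h.

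Of 8 complement and acute phase genes with 2 or more probe sets 5 read higher and 3 disagreed, against 38.2% and 49.4% of all genes. None of these 8 was 2-fold higher on every probe set. Of the 8 members of this list with 1 probe set 5 were at least 2-fold higher, and for these no agreement can be read. C3, the central complement protein, read 3.06, 3.01, 3.04 and 2.96 with BSA and 3.01, 5.96, 7.34 and 7.57 with TNF-α, a difference of 4.61 after 4.30 at 12 h. C1S, a protease of the classical pathway, read 3.30 and 8.09 at 24 h, a difference of 4.79 after 3.19. SAA1, an acute phase apolipoprotein, differed by 2.91 at both times, and against the BSA 12 h array by 1.69. C1R, the partner protease of C1S, disagreed, from -1.14 to 3.13. In all, 243 of the 6403 genes with 1 probe set were at least 2-fold higher and 366 at least 2-fold lower, of which 34 and 6 were so at 12 h.

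At 24 h 31 genes were 2-fold higher on every probe set without a 2-fold difference on any probe set at 2, 6 or 12 h. SPAG1, needed to assemble the dynein arms of cilia, read 4.90, 4.56, 5.02 and 5.37 with BSA and 4.88, 5.03, 4.93 and 7.61 with TNF-α. It stood apart on the TNF-α 24 h array alone, with differences of 2.21 and 2.29. ITGA2 was another of the 31. ATP8B1, a phospholipid flippase, differed by 1.57 and 2.75, IGDCC4, a membrane protein of the immunoglobulin superfamily, by 1.60 and 2.59, KIAA0825 by 1.68 and 1.93, and ANKRD34B, an ankyrin repeat protein, by 1.63 and 2.03. INHBA, the activin A subunit, was already 0.78 higher on average at 12 h and differed by 1.63 and 2.07 at 24 h. CLEC2B, a C-type lectin, read 7.45 with TNF-α and 5.79 with BSA at 24 h, but 7.59 with BSA at 12 h, so its difference of 1.65 became -0.14 against that array. The same control gaps and the level-dependent shift stand beside all 31 genes, and their part in these differences was not tested.

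Between these sets stood 6 genes with a 2-fold difference on some probe set before 24 h: BCAR3, CXCL2, GCH1, IFI27, TFPI2 and TNFSF13B. GCH1, the first enzyme of tetrahydrobiopterin synthesis, had a mean of 1.20, and TFPI2, a protease inhibitor, 1.79. Of the 53 higher genes 49 read above all 4 BSA arrays on every probe set, and 33 above all 7 other arrays. Over all 11809 genes these counts were 2179 and 1657. The 53 were chosen by the same TNF-α 24 h values, so their counts are no separate check. Under 4 other references and scalings (arrays centred, quantile normalised again, the mean of the 4 BSA arrays, or BSA at 12 h) 40 of the 53 remained 2-fold higher on every probe set, 13 of the 16 shared with 12 h among them. The 3 of the 16 that did not were CCL5, CD47 and NFE2L3.

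MCM4, a subunit of the replicative helicase, had the most negative mean difference of the 197 lower genes. The mean of its 4 probe sets was 9.65, 9.65, 9.55 and 9.52 with BSA and 9.67, 9.53, 9.36 and 4.62 with TNF-α at 2, 6, 12 and 24 h. The 7 other arrays lay close together and the TNF-α 24 h array stood alone. Its probe sets differed by -6.23, -5.92, -3.72 and -3.71, after a mean of -0.20 at 12 h. AARS1, the alanyl-tRNA synthetase, differed by -4.16 and -3.63, SF3B2, a splicing factor, by -3.29 and -3.28, and MRPL12, a mitochondrial ribosomal protein, by -4.21 and -2.98. AARS1 read 7.68 to 8.05 with BSA at 12 h and 9.10 to 9.25 at 24 h, and its mean difference was -2.59 against the former.

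The other named lower genes are of many functions. AP2S1 and AP2B1, subunits of a clathrin adaptor, had mean differences of -3.13 and -3.04. AHCY, which breaks down S-adenosylhomocysteine, had -3.33, RPL8, a ribosomal protein, -3.70, and TAF11, a subunit of a general transcription factor, -2.90. DHX30, an RNA helicase, NOP2, a methyltransferase of ribosomal RNA, and NAXE, an epimerase that repairs NADHX, had -2.76, -2.66 and -2.78. At 12 h the 8 means lay between -0.17 and 0.14. Of the 197 genes 182 read below all 4 BSA arrays on every probe set and 180 below all 7 other arrays. Over all 11809 genes these counts were 849 and 748. The 197 were chosen by the same TNF-α 24 h values, so their counts are no separate check. Under all 4 other references and scalings 124 of the 197 remained 2-fold lower.

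The lower genes included subunits of the replication machinery. Of 15 mitosis and replication genes with 2 or more probe sets 7 read lower, 1 higher and 7 disagreed, against 12.4%, 38.2% and 49.4% of all genes. The list's median was -0.43 against 0.15 over all genes. MCM4, MCM7, MCM2 and TOP2A were 2-fold lower on every probe set, with means of -4.90, -2.60, -2.52 and -2.38. The median of this list was -1.17 against BSA at 12 h. Of 18 cytosolic ribosomal proteins 4 read higher, 4 lower and 10 disagreed, against 38.2%, 12.4% and 49.4% of all genes. ACTB itself read lower on all 3 of its gene probe sets, with differences of -5.14 to -1.26 and a BSA 24 h mean of 9.57 against 11.48 to 11.53 before. Its 3′ array control, however, differed by 0.12, while the middle and 5′ controls differed by -3.24 and -3.29. A gene 2-fold lower on every gene probe set was thus not lower at its 3′ control. The 1 probe set of GAPDH differed by -1.67. ACTB and GAPDH are the transcripts whose control gaps were widest, and the part of that loss in the lower lists was not tested.

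Of 11 chaperone and stress genes with 2 or more probe sets 6 read lower, none higher and 5 disagreed, against 12.4%, 38.2% and 49.4% of all genes. The list's median was -1.15, and -0.60 against BSA at 12 h. HSPA5, the chaperone BiP of the endoplasmic reticulum, ranged from -5.76 to -0.15 over 6 probe sets. TRIB3 and DDIT3, both targets of the integrated stress response, had mean differences of -2.58 and -2.03. TRIB3 was high on the BSA 24 h array. Its brighter probe set read 8.90, 8.18, 7.73 and 10.76 with BSA and between 7.83 and 8.55 with TNF-α, and against BSA at 12 h its mean difference was 0.15. GDF15, a stress-induced cytokine with 1 probe set, read 3.06, 3.12, 2.99 and 7.49 with BSA and 3.31, 2.92, 3.08 and 2.93 with TNF-α, so that beside its difference of -4.56 the TNF-α arrays were level and BSA at 24 h stood alone.

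KRT18, a keratin of simple epithelium, read 9.46 with BSA and 7.05 with TNF-α at 24 h, with differences of -2.48 and -2.34. KRT8, its partner, read lower on all 8 probe sets, with differences of -3.65 to -0.78, and its mean with BSA was 5.75 at 24 h against 7.97 to 8.28 before. KRT7, another such keratin, differed by 1.16 on its 1 dim probe set. Of the 9 keratin and junction genes with 2 or more probe sets 5 read higher and 2 lower, against 38.2% and 12.4% of all genes. FDPS, farnesyl diphosphate synthase, differed by -1.84 and -1.62. HMGCS1, which makes HMG-CoA, differed by 0.74 against BSA at 24 h, by -0.80 against the mean of the 4 BSA arrays and by -1.55 against BSA at 12 h. GPX1, a glutathione peroxidase, differed by -2.03 and -2.01, while SOD2, the mitochondrial superoxide dismutase that NF-κB induces, read higher on all 4 probe sets, by 0.22 to 2.60. CLDN1, a tight junction protein, was higher on all 4 probe sets, with a mean of 2.12 after 2.94 at 12 h.

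Genes whose probe sets disagreed show what a single probe set can hide. CD9, a tetraspanin of the cell surface, had 9 probe sets, of which 6 read lower and 3 higher, from -6.95 to 0.67. A pair of bright ones that read 10.93 and 9.83 on the BSA 24 h array read 10.51 and 2.88 on the TNF-α 24 h array, so that 1 was nearly level while the other ended under the lower quartile of that array. HNRNPF, an RNA-binding protein, had 3 higher and 4 lower, from -4.93 to 1.29, while at 12 h its 7 probe sets were within 0.19 to 0.28. ANXA5, a phosphatidylserine-binding annexin, had 5 of 6 lower, from -5.03 to 1.01. RPL3, a ribosomal protein, differed by -5.66, -3.26 and 0.31. ABCD3, CNBP, HNRNPA1 and MSMO1 completed the 8 genes with the widest ranges.

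JUN, an AP-1 subunit that TNF-α switches on early, had all 4 probe sets higher at 12 h, by up to 1.55. At 24 h they differed by -1.20, -1.01, -0.99 and 0.24. Of the 14 AP-1 and immediate early genes with 2 or more probe sets 9 disagreed, 4 read higher and 1 read lower, against 49.4%, 38.2% and 12.4% of all genes. FOSL1, the AP-1 subunit Fra-1, was the most even of the higher ones, with 6 probe sets between 0.88 and 1.86.

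**Figure D5:**
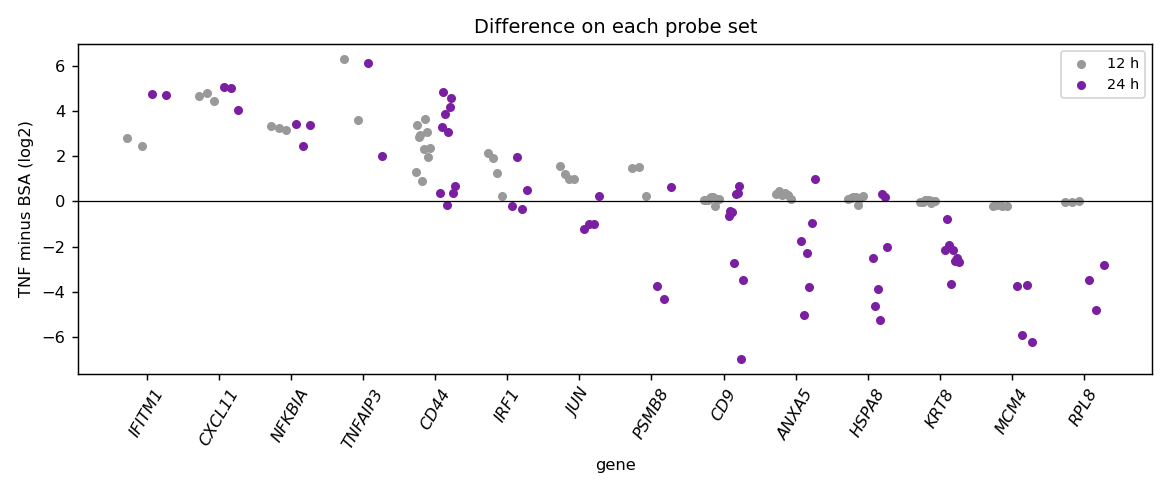
Each point is a probe set of the named gene, with TNF-α minus BSA (log2) on the vertical axis, at 12 h (grey) and 24 h (purple). IFITM1, CXCL11 and NFKBIA kept all points above 2 at both times, CD44, IRF1, JUN and PSMB8 were above 0 at 12 h and spread across 0 at 24 h, and MCM4 and RPL8 were near 0 at 12 h and all below -2 at 24 h.

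How a gene was summarised decided many calls. With the brightest probe set standing for each gene, 870 genes with 2 or more probe sets were at least 2-fold higher, of which 456 had probe sets that agreed in sign and 414 did not. Of the 850 at least 2-fold lower on that probe set 444 agreed and 406 did not.

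The label of the cells was only partly borne out by marker transcripts on either 24 h array. The acinar markers AQP5, MUC7, BHLHA15, STATH, PRB1, HTN1 and LPO were all under the median level of probe sets (4.41) on every array, AQP5, a water channel, at 4.06 with BSA and 4.13 with TNF-α, while PRH1, a proline-rich salivary protein, read 4.89 to 5.27 and was above it. SLC12A2, the chloride importer of acinar cells, was above it at 7.68 and 8.06 on its brightest probe set. KRT18 was bright, and KRT8 read 6.37 with BSA and 2.72 with TNF-α on its brightest probe set. EPCAM, CDH1, KRT7 and KRT19 were under the median on every array. Of the fibroblast markers COL3A1 read 9.93 and 9.72, DCN 7.10 and 8.80 and LUM 6.87 and 8.48 with BSA and TNF-α. PDGFRA read 4.32 and 4.85, while COL1A1 and COL1A2 were under the median. Of 6 leukocyte markers PTPRC, CD14, LYZ, MS4A1 and ITGAM were under it on every array, and CD3E reached 4.74 on the TNF-α 24 h array. The basal or myoepithelial markers MYH11 (5.16 to 5.56) and ACTA2 and the endothelial marker PECAM1 (4.86 to 5.18) were above it on every array. KRT5, CNN1 and VWF were above it on some arrays, and KRT14, CDH5 and KDR on none. A level such as that of PRH1 therefore does not by itself mark a cell type.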

How the data were processed

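Gene expression was measured on 8 single-channel arrays, 1 per treatment and time. The authors deposited log2 values, 1 for each probe set on each array, made with RMA per the submitters' processing notes; RMA corrects background, makes the arrays' probe distributions equal and summarises each probe set, which can draw together arrays that differ as a whole. Which software ran it, and with which filter, is not given in the sources used here. Arrays give no read depth, so their number limits the precision.

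Of 49386 probe sets, 45253 had 1 gene symbol in the platform annotation, and 45185 were used after array controls and genes of the Y chromosome or XIST were left out. Another 2713 had no symbol and 1327 several. Of the Entrez identifiers 18180 matched a RefSeq gene table and 62 did not, and list members without a listed probe set were not analysed here. Differences were computed with pandas 2.3.3 and numpy 2.4.6 (Python 3.11.15), with no test, and a gene's value is the mean over its probe sets unless a probe set is named. The code that sorts genes by sign was run on simulated arrays with known shifts. Those arrays held no loss towards the 5′ end, so this checks the code alone.

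The genes named were the 15 highest and 12 lowest by their least-differing probe set, the 8 highest and 8 lowest without an earlier 2-fold difference, the 8 with the widest disagreement, up to 4 per list by size of mean difference, and 15 further genes. Genes outside these were named after their values were seen. The members and the 23 lists (390 symbols, 356 measured) were chosen with earlier results of these data known. Alternatives were array centring, quantile normalisation, other reference arrays, filters on dim, ambiguous or near-zero probe sets, and 1.5-fold and 3-fold limits.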

Additional observations from a re-analysis of the deposited data

Results flagged for a closer look

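For 14 genes every probe set differed one way at 24 h and the opposite way at 2, 6 and 12 h, and the mean at 24 h was past 2-fold; the difference between the times was not tested. SDC4, a heparan sulfate proteoglycan of the cell surface, had means of 3.43, 3.16 and 2.28 at 2, 6 and 12 h and -1.12 at 24 h. IFNGR1, the interferon gamma receptor chain, had 0.32, 1.20 and 1.12 and then -1.21, and UXS1, which makes UDP-xylose for proteoglycans, 0.18, 1.24 and 1.26 and then -1.34. Another 6 also turned from higher to lower, to -1.05 for ELOVL5, -1.96 for MAGOH, -1.17 for NIBAN1, -1.31 for PHC2, -1.58 for RAB13 and -1.77 for TRIM37. The opposite turn, from lower to higher, ended at 1.03 for ASF1A, 1.15 for GPX8, 1.28 for NUDT6, 1.13 for SNRPN and 1.32 for ZNF789.

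Among the 2713 probe sets with no gene symbol, which enter no comparison of genes, 109 were at least 2-fold higher at 24 h, 102 of them above all 4 BSA arrays, and 21 were 2-fold higher at 12 h too. Another 255 were at least 2-fold lower.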

How the results depend on the processing

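No paired analysis was possible because each group has 1 array and the results come from no test. The counts at issue are, in this order, genes with all probe sets higher (4509), all lower (1469) and in disagreement (5831), genes 2-fold higher (53) and lower (197) on every probe set, those higher at 12 h too (16), and those without an earlier 2-fold difference, higher (31) and lower (195).

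Centring the arrays moved none of the 8 counts by over 1.5 times. Quantile normalisation gave 80 genes 2-fold higher and 54 without an earlier difference. With the mean of the 4 BSA arrays as reference these were 108 and 83, and with BSA at 12 h 135 and 111. Some filters also left fewer than 11809 genes, so their counts are not shares of the same whole. Leaving out dim probe sets left 5892 genes, with 1342 all higher, 3116 in disagreement, 84 2-fold higher and 53 of them late only. Leaving near-zero probe sets out of the vote left 7921 genes, with 3164 in disagreement, 88 2-fold higher and 54 late only. Without probe sets that may match several transcripts, 31 of 9092 genes were 2-fold higher, 10 of them at 12 h too and 19 late only. At 1.5-fold the last 5 counts were 206, 400, 36, 149 and 360, and at 3-fold 19, 81, 10, 8 and 81. A limit to the 7019 genes with 3 or more probe sets was chosen after the data were seen. Of these, 2042 read all higher and 664 all lower, and the last 5 counts were 11, 84, 7, 3 and 82.

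Against BSA at 12 h CLEC2B was -0.14, EGR1 0.55 and TRIB3 0.15, each opposite to its 24 h reference, and without the ambiguous probe sets RPL3 was 0.31 and EEF1A1 0.20. Among smaller differences that turned sign against BSA at 12 h were HMGCS1 from 0.74 to -1.55, INSIG1 from 0.90 to -1.10, TNC from 0.65 to -0.34 and TRPC1 from -0.56 to 0.66. The cause of these changes was not tested. With 1 array per group, and with both 24 h arrays apart from the others, treatment cannot be told apart from array at 24 h.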

Other observations

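Of 14 respiratory chain genes with 2 or more probe sets 3 read higher, 3 lower and 8 disagreed, against 38.2%, 12.4% and 49.4% of all genes. The median was -0.62 over the 21 measured, against 0.15 over all genes, -0.19 without probe sets that may match several transcripts and -0.98 with near-zero probe sets left out. ATP5F1B, the catalytic subunit of ATP synthase, differed by -2.28 and -1.89, and SDHD, a membrane anchor of succinate dehydrogenase, read lower on all 5 probe sets. Of 15 glycolysis and hypoxia genes 3 read higher, 4 lower and 8 disagreed. ENO1, enolase, differed by -3.13 and -2.48, with a mean of 8.31 with BSA at 24 h against 10.28 to 10.34 before, and LDHA, lactate dehydrogenase, ranged from -2.02 to -1.16 over 4 probe sets. Of 8 cholesterol synthesis genes 2 read higher, 3 lower and 3 disagreed. Of 7 reference transcripts, commonly taken as stable, 1 read higher, 1 lower and 5 disagreed, and EEF1A1, a translation elongation factor, spanned -3.74 to 0.31.

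Of 13 apoptosis genes 3 read higher, 1 lower and 9 disagreed, against 38.2%, 12.4% and 49.4% of all genes, which stand beside each list here. CASP1, the inflammasome caspase, was higher on 8 of 9 probe sets, up to 3.34, and BAX, which permeabilises mitochondria, differed by -1.71 and -0.93, with a mean of 5.63 with BSA at 24 h against 6.48 to 6.89 before. MLKL, the executor of necroptosis, differed by 1.84 on its single probe set after 0.53 at 12 h. Of 12 matrix and protease genes 5 read higher and 7 disagreed, while MMP9, gelatinase B, with 1 probe set, differed by 2.60 after 0.79. FN1, fibronectin, spanned -2.38 to 0.62 over 8 probe sets. Of 8 tryptophan and superoxide enzymes 3 read higher, 2 lower and 3 disagreed, and of 9 keratin and junction genes 5 read higher, 2 lower and 2 disagreed. Of 10 genes of salivary fluid secretion 6 read higher and 4 disagreed, none was 2-fold higher or lower on every probe set, and the median was 0.11, near that of all genes. ITPR2, a calcium release channel of acinar cells, spanned 0.09 to 2.46 over 3 probe sets.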
